A study of Mus musculus with 8 samples.

Results

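The 6 genes described here encode the corticosteroid receptors and proteins that set how much hormone reaches them and how they fold: Nr3c1 (the glucocorticoid receptor), Nr3c2 (the mineralocorticoid receptor), Hsd11b1, Fkbp4, Fkbp5 and Ptges3. They were picked by symbol, each symbol matched 1 row, and they make up 6 of the 32517 gene symbols kept from the count table. All 6 were among the 15373 genes tested. They were measured by RNA sequencing of whole eyes from untreated male mice, 12 weeks old, under a cycle of 12 h light and 12 h dark. WT mice were negative for Cre. In the mice called cKO, which were positive for Cre, Nr3c1 was deleted in the retina. Eyes were taken at zeitgeber times ZT3, ZT9, ZT15 and ZT21, in hours after lights-on, and each genotype and time gave 1 library from the pooled RNA of 3 mice. This makes 8 libraries with no repeat at any time, and the 4 times serve as the replicates of a genotype (n = 4 libraries each). Which promoter drives Cre, and whether the WT mice carry a floxed Nr3c1, were not stated in the labels used here. A whole eye also holds lens, cornea, pigment epithelium and other tissues outside the retina.

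Glucocorticoids diffuse into cells and bind a receptor that is held in the cytosol by a chaperone complex built on HSP90. The co-chaperone p23, the product of Ptges3, stabilises the hormone-binding form. FKBP5 occupies the complex of the unliganded receptor and lowers its affinity for hormone, whereas FKBP4 links the complex to dynein and favours transport to the nucleus. In many mouse and human tissues Fkbp5 is itself induced by the activated receptor, which closes a short negative feedback loop. The enzyme made from Hsd11b1 regenerates active corticosterone from its inactive keto form inside the cell, and the mineralocorticoid receptor binds the same hormone with high affinity. In nocturnal rodents plasma corticosterone peaks around lights-off.

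Promoter sequences were available for 5 of the 6 genes, all but Nr3c1. Those of Fkbp5 and Fkbp4 are shown because the products compete for the same complex while their transcripts were highest at different times, and that of Ptges3 because its transcript varied most between times. Each run holds the 250 bases before the RefSeq start site, 5′ to 3′ on the gene's strand (GRCm38.p6), and capitals mark the E-box.
Fkbp5: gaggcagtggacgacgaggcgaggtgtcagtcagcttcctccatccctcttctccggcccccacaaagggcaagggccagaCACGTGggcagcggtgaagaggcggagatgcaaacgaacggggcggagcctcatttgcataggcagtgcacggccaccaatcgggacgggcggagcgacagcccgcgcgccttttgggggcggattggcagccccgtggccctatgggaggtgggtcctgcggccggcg
Fkbp4: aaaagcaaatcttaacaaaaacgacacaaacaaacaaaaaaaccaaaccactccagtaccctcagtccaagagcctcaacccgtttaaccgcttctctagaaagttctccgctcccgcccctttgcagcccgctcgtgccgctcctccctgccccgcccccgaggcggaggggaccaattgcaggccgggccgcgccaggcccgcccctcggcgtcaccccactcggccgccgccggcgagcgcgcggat
Ptges3: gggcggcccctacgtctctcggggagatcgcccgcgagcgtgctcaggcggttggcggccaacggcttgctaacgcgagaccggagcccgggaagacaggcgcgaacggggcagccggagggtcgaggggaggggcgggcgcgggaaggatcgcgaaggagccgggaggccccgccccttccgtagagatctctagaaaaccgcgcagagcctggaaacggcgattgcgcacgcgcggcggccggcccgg
The Fkbp5 window lies at chr17:28486150-28486399, minus strand. The Fkbp4 window lies at chr6:128438657-128438906, minus strand, and the Ptges3 window at chr10:128058732-128058981, plus strand. The search covered both strands for the E-box CACGTG, the D-box TTATGTAA, the half-site AGAACA of the glucocorticoid response element, the GC box GGGCGG and the CCAAT box CCAAT. None of these motifs contains another. In the 5 promoters there was 1 E-box, that of Fkbp5 from base -169 to -164 before the start, and 0 D-boxes and 0 glucocorticoid half-sites. Only these 250 bases were searched, so sites elsewhere in or near the genes, those of Fkbp5 included, would have been missed. The 0 for the half-site thus does not show that a gene lacks sites of the receptor. A GC box was found in 4 of the 5 promoters and a CCAAT box in 4 of the 5. Of 32851 annotated promoter windows of this length, 6.02% held an E-box, 0.819% a D-box, 16.1% a glucocorticoid half-site, 32.7% a GC box and 33.8% a CCAAT box. The bases G and C made up 68% of the Fkbp5 window, 63.2% of Fkbp4, 73.2% of Ptges3, 68.4% of Nr3c2 and 54.4% of Hsd11b1.

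Total counts ran from 11748995 to 20309611 per library. The 12 rod markers took 4.98 to 6.01% of the counts and the 6 markers of the nonpigmented ciliary epithelium, the cell type named in one label field, took 0.0927 to 0.149%, with none of the 18 at 0. The libraries are therefore called whole eyes, as the protocols do. Both ZT3 libraries stood apart: 24.8% of all genes tested were highest and 26.9% lowest at ZT3 in both genotypes, against 4.33 to 5.93% for any of the other 3 times. The 13 mitochondrial messenger RNAs took 5.49% of the counts in WT and 6.12% in cKO at ZT3. At the other times they took 1.09 to 1.35% in WT and 2.08 to 3.69% in cKO. The 16 lens markers took 12.3 to 15.3% of the counts in WT and 17.0 to 20.8% in cKO, and all 16 had a positive log2 fold change. Of 12 Müller glia markers 11 were higher in cKO, with 0.362 to 0.679% of the counts in WT and 0.506 to 0.681% in cKO. The part of these shifts in the results below was not tested, and in whole-eye RNA fewer cells of a type and less RNA per cell cannot be told apart.

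Corrected for length, as CPM (counts scaled to the library size, adjusted by the TMM method) per kb of annotated exon, Fkbp4 was the most abundant of the 6 transcripts. It had a mean level of 78.7 CPM per kb in WT and 90.4 in cKO. Ptges3 followed with 17.5 in WT and 22.6 in cKO. Nr3c1 stood at 15.7 in WT and 4.63 in cKO, and Nr3c2 at 4.30 and 4.12. Fkbp5 had 2.94 and 2.39, and Hsd11b1 was the least abundant with 0.355 and 0.487. The annotated exons of Fkbp5 cover 9468 bases, but its longest coding transcript only 3858, so its place below the receptors depends on the length used. In WT the mean levels of Ptges3 and Nr3c1 did not differ beyond the spread over times, and without the ZT3 library their order turned, with 10.2 for Ptges3 and 17.6 for Nr3c1. In cKO those of Nr3c1 and Nr3c2 lay next to each other.

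**Figure D1:**
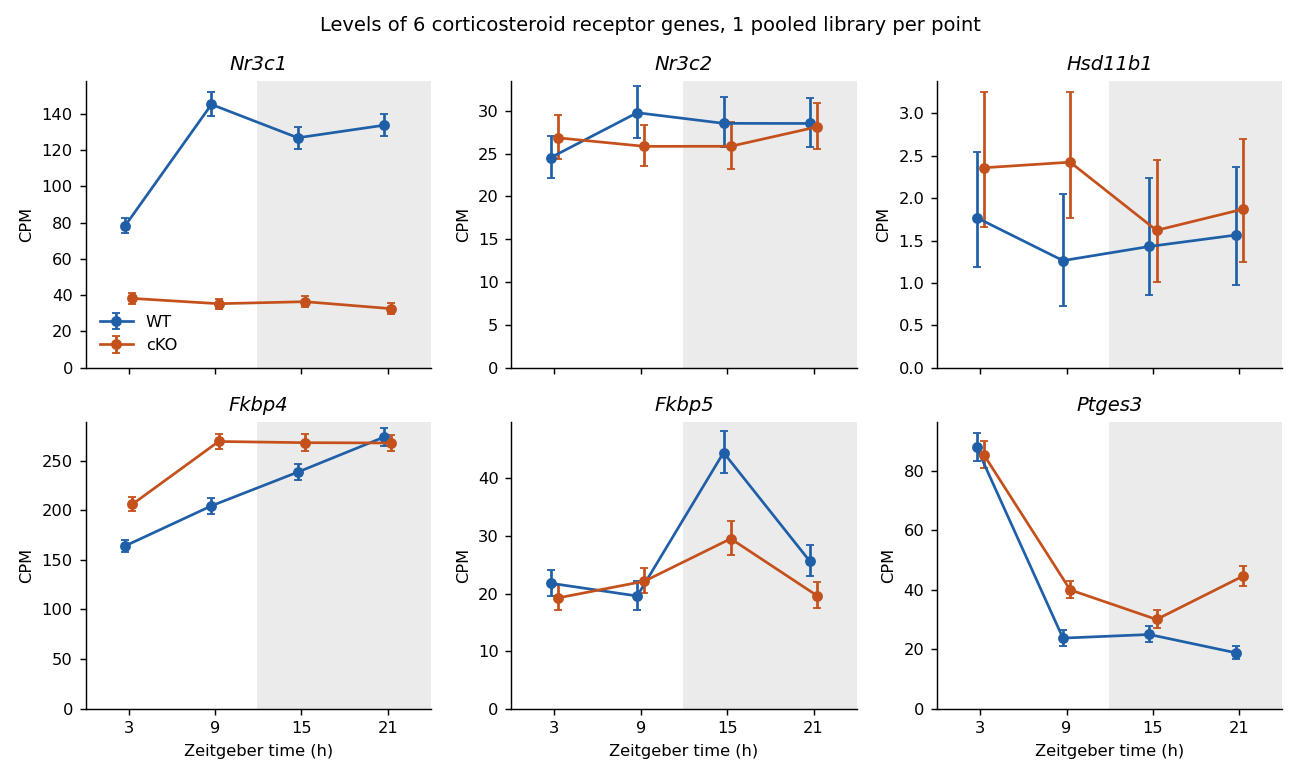
CPM (TMM-adjusted) of each gene against zeitgeber time in WT (blue) and cKO (orange); each point is 1 library of 3 pooled mice, bars are exact 95% Poisson intervals for counting error only, and the grey area is the dark phase. Nr3c1 is lower in cKO at every time, Fkbp5 is highest at ZT15 in both genotypes (44.5 and 29.5 CPM), and Ptges3 is highest at ZT3 in both (88.0 and 85.5 CPM).

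Among the receptors, Nr3c1 was the 1 gene of the 6 whose genotypes did not overlap. From ZT3 to ZT21 the WT libraries gave 78.2, 145.1, 126.7 and 133.7 CPM, and the cKO libraries 38.2, 35.3, 36.4 and 32.5 CPM. The cKO values were low and close together, with a highest-to-lowest ratio of 1.17, whereas the WT libraries spread 1.86-fold because ZT3 was low. Of all genes tested, 3.16% were lower in cKO without overlap. At ZT3 the cKO level was 0.488 of WT (95% counting interval 0.442 to 0.538), and at the other times it was 0.243 (0.222 to 0.266), 0.287 (0.259 to 0.318) and 0.243 (0.220 to 0.269). The ratio at ZT3 thus lay above the counting intervals of the other 3. The WT level at ZT3 was 0.579 of the mean of the other WT times (135.2 ± 9.28 CPM, SD, n = 3), and the cKO level at ZT3 was 1.10 of the mean of the other cKO times (34.7 ± 1.99 CPM). In edgeR's quasi-likelihood test the log2 fold change of cKO against WT was -1.73 (SE 0.18, 95% interval -2.17 to -1.30, adjusted p = 0.157). This was the second smallest p of all genes tested. For the same comparison DESeq2's adjusted p was 7.39e-13. Without the ZT3 pair the log2 fold change was larger in size, and over all left-out times it ran from -1.95 to -1.61. The gene occupies bases 39410545 to 39519421 of chromosome 18, minus strand, in GENCODE M21 (GRCm38), and the counts do not show which of its exons the remaining reads cover.

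Nr3c2, the second receptor for the same hormone, showed WT levels of 24.5, 29.8, 28.5 and 28.5 CPM in the order of the times, and cKO levels of 26.8, 25.9, 25.9 and 28.1 CPM. The genotypes overlapped and the 8 libraries lay within a 1.21-fold range, the narrowest of the 6 genes. The log2 fold change was -0.06 (SE 0.10, 95% interval -0.30 to 0.18, adjusted p = 0.749 in edgeR). Nr3c2 lies on chromosome 8 from 76899442 to 77245012, plus strand, and shares exon bases with the antisense gene Gm10649, whose reads could not be told apart because the use of strand in counting was not stated.

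The balance of the receptors, taken as the ratio of Nr3c1 to Nr3c2 per kb of exon, does not depend on how a library is scaled. It was 2.68, 4.11, 3.74 and 3.95 in WT from ZT3 to ZT21. In cKO it was 1.20, 1.15, 1.19 and 0.975. The genotypes did not overlap, with a mean of 3.62 ± 0.64 in WT and 1.13 ± 0.10 in cKO (SD, n = 4). In cKO eyes the counts of both receptors per kb of exon were thus near equal. Nr3c2 varied only 1.21-fold over the 8 libraries, so the gap in this ratio restates that in Nr3c1 and is no separate evidence. With coding length in place of all exons the means were 5.33 in WT and 1.66 in cKO, so the size of the ratio rests on the length used.

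**Figure D2:**
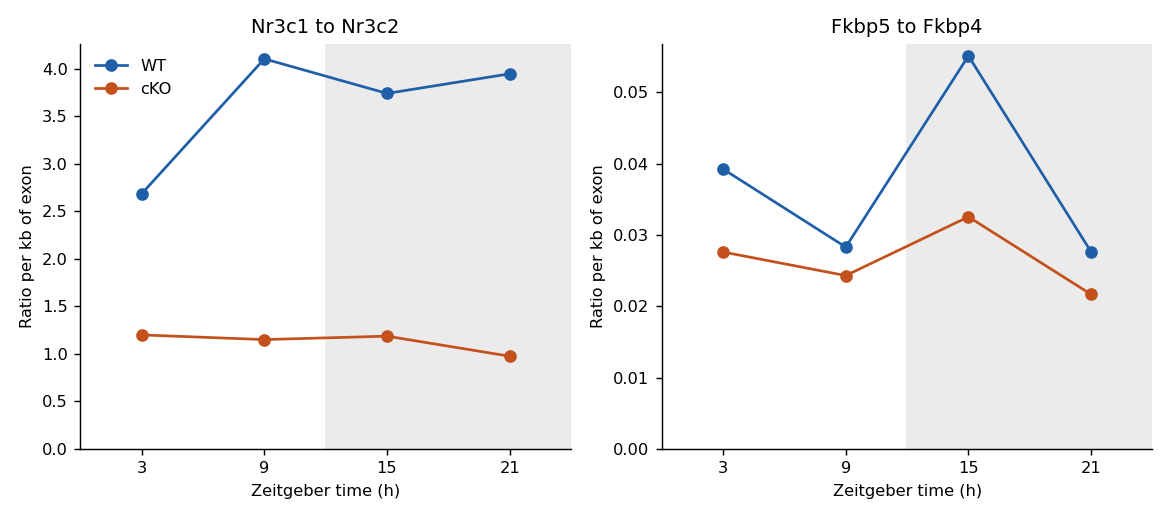
Ratio of Nr3c1 to Nr3c2 (left) and of Fkbp5 to Fkbp4 (right), counts per kb of exon, against zeitgeber time in WT (blue) and cKO (orange); each point is 1 library and the grey area is the dark phase. The receptor ratio is 2.68 to 4.11 in WT and 0.975 to 1.20 in cKO, and the immunophilin ratio is highest at ZT15 in both genotypes.

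Hsd11b1, the activating enzyme, was close to the limit of these libraries, with 29, 16, 19 and 22 counts in WT and 37, 44, 22 and 28 in cKO from ZT3 to ZT21. As levels these are 1.77, 1.26, 1.43 and 1.56 CPM for WT, against 2.36, 2.43, 1.62 and 1.87 CPM for cKO. The cKO library was the higher one at 4 of 4 times, yet the groups overlapped. At ZT9 the ratio of cKO to WT was 1.92 (95% counting interval 1.06 to 3.64), and at the other times the intervals held equality. The log2 fold change was 0.45 (SE 0.23, 95% interval -0.10 to 0.997, adjusted p = 0.300 in edgeR). Being higher or lower at 4 of 4 times was true of 2 of the 6 genes, Nr3c1 and Hsd11b1, and of 30.8% of all genes tested.

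**Figure D3:**
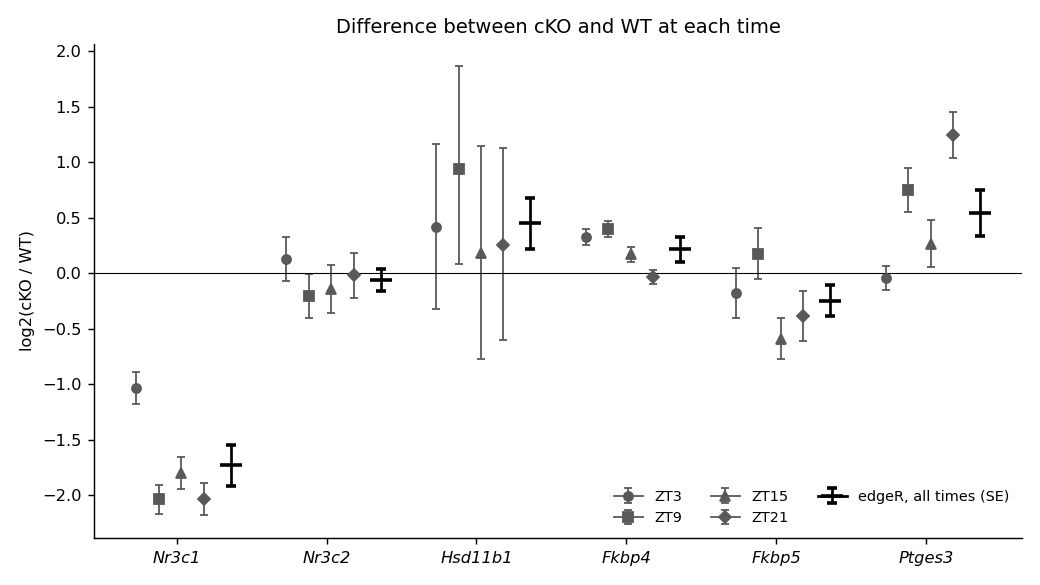
log2 ratio of cKO to WT for each gene at ZT3, ZT9, ZT15 and ZT21 (grey symbols, bars are 95% counting intervals) and the edgeR estimate over all times (black, bar is the SE). Nr3c1 lies at -1.03 at ZT3 and between -2.04 and -1.80 at the other times; for Nr3c2, Fkbp4, Fkbp5 and Ptges3 the sign is not the same at all 4 times.

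Fkbp5, the inhibitory co-chaperone, was the 1 gene of the 6 that was highest at ZT15 in both genotypes. In WT it had 21.8, 19.6, 44.5 and 25.6 CPM at ZT3, ZT9, ZT15 and ZT21. In cKO it had 19.3, 22.2, 29.5 and 19.6 CPM. ZT15 lies early in the night, and it was the highest time in both genotypes for 5.93% of all genes tested. The ZT15 level was 1.99 times the mean of the other times in WT (22.3 ± 3.04 CPM, SD, n = 3) and 1.45 times in cKO (20.4 ± 1.58 CPM). A wave of 24 h shared by both genotypes had a peak-to-trough fold of 1.79 with its peak at ZT15.4 (adjusted p of 0.267 by edgeR and 0.141 by DESeq2). Allowing any difference between the 4 times, an alternative chosen after the data were seen, gave an adjusted p of 0.107 in edgeR. Without both ZT15 libraries the fold of the wave was 1.15 (adjusted p of 0.874 in edgeR) and without both ZT3 libraries 2.85 (adjusted p of 0.9997), so the wave rests on ZT15.

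Between genotypes, the ZT15 level of Fkbp5 in cKO was 0.664 of WT (95% counting interval 0.583 to 0.755), and at ZT21 it was 0.767 (0.655 to 0.897). At ZT3 and ZT9 the ratios were 0.883 (0.755 to 1.03) and 1.13 (0.963 to 1.33), with equality inside the interval. Counting intervals do not cover the differences between mice, and each value compares 1 pool with 1 pool. Over all times the log2 fold change was -0.25 (SE 0.14, 95% interval -0.58 to 0.08, adjusted p = 0.339 in edgeR). The difference in wave between the genotypes had an adjusted p of 0.9999 in edgeR, in a fit with 2 residual degrees of freedom. The share of the erythrocyte markers was also highest at ZT15 in both genotypes. In WT their 6 genes took 1.10% of the counts at ZT15 and 0.119 to 0.238% at the other times. In cKO they took 0.111% at ZT15 and 0.0634 to 0.0863% at the other times. Their part in the Fkbp5 values was not tested. Fkbp5 lies on chromosome 17 from 28399094 to 28517527, minus strand, so the promoter window shown above, before the RefSeq start, lies inside the longer GENCODE gene. The windows of Nr3c2 and Hsd11b1, searched but not shown, likewise lie inside their GENCODE genes.

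Fkbp4, the transport-linked co-chaperone, gave 164.0, 204.4, 238.3 and 273.7 CPM in the WT libraries, and 205.9, 269.2, 268.0 and 267.6 CPM in those of cKO. The cKO libraries from ZT9 to ZT21 were almost equal, and ZT3 was the lowest time in both genotypes, as for 26.9% of all genes tested. The cKO level was 1.26 times WT at ZT3 (95% counting interval 1.19 to 1.32), 1.32 times at ZT9 (1.26 to 1.38), 1.12 times at ZT15 (1.07 to 1.18) and 0.978 times at ZT21 (0.935 to 1.02). The groups overlapped, with a log2 fold change of 0.22 (SE 0.11, 95% interval -0.05 to 0.48, adjusted p = 0.308 in edgeR). The common wave had a peak-to-trough fold of 1.42 (adjusted p = 0.333 in edgeR), where the median gene had 1.38. Fkbp4 lies on chromosome 6 from 128429735 to 128438677, minus strand.

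Set against each other per kb of exon, Fkbp5 was a small fraction of Fkbp4 in every library. The ratio was 0.0393, 0.0283, 0.0551 and 0.0276 in WT and 0.0276, 0.0243, 0.0325 and 0.0217 in cKO from ZT3 to ZT21. ZT15 was the highest time in both genotypes, and the cKO value was below WT at each time. At ZT9 Fkbp5 itself was higher in cKO (1.13 times WT), and the ratio was lower because Fkbp4 was 1.32 times WT. How often ratios of other genes keep 1 direction at all times was not computed, so this is a description only. The mean was 0.0376 ± 0.0129 in WT and 0.0265 ± 0.00469 in cKO (SD, n = 4), and the groups overlapped. On coding length the means were 0.128 and 0.0903, so the level of this ratio depends on the exons counted for Fkbp5.

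Ptges3, which encodes p23, varied more between times than any other of the 6 genes. In WT it had 88.0, 23.8, 25.0 and 18.9 CPM at ZT3, ZT9, ZT15 and ZT21, and in cKO 85.5, 40.0, 30.1 and 44.6 CPM. Both ZT3 libraries were high and nearly equal, and the cKO libraries were above WT at the other 3 times. ZT3 was 3.90 times the mean of the other times in WT (22.5 ± 3.26 CPM, SD, n = 3) and 2.24 times in cKO (38.2 ± 7.45 CPM). Being highest at ZT3 in both genotypes was true of 24.8% of all genes tested. The common wave had a peak-to-trough fold of 3.25 with its peak at ZT3.09, above the fold of 97.5% of genes (adjusted p of 0.262 by edgeR and 0.0117 by DESeq2). Without both ZT3 libraries the fold was 1.18, so the wave rests on that time, and without both ZT15 libraries it was 8.60.

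**Figure D4:**
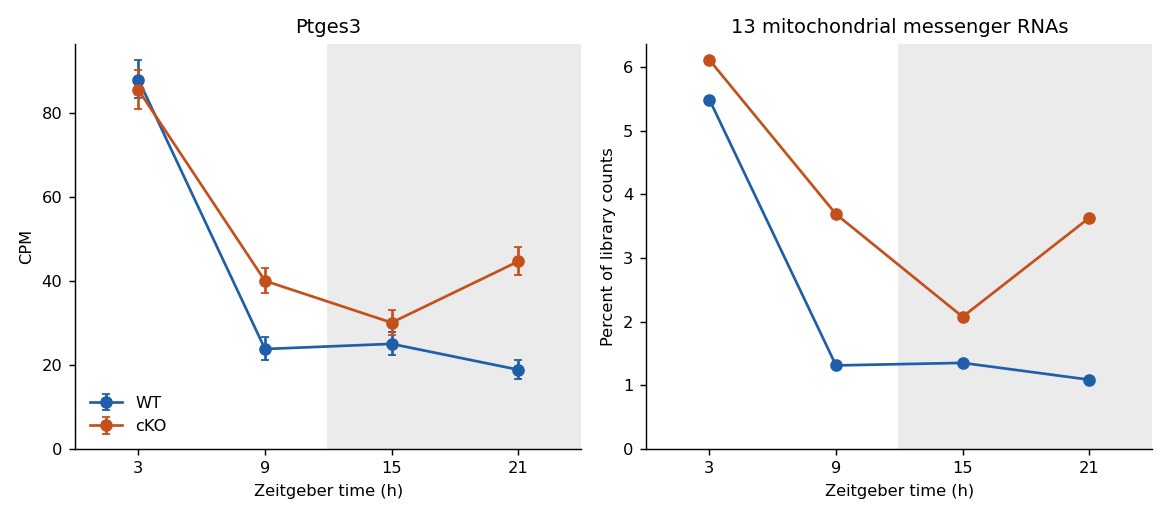
Left, Ptges3 in CPM (bars are 95% counting intervals); right, the share of library counts in 13 mitochondrial messenger RNAs, in percent, both against zeitgeber time in WT (blue) and cKO (orange), with the dark phase in grey. Both measures are highest at ZT3 in each genotype and higher in cKO than in WT at ZT9, ZT15 and ZT21.

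The genotype ratio of Ptges3 was 0.972 at ZT3 (95% counting interval 0.901 to 1.05), 1.68 at ZT9 (1.47 to 1.93), 1.20 at ZT15 (1.04 to 1.39) and 2.37 at ZT21 (2.05 to 2.74). The log2 fold change over all times was 0.55 (SE 0.21, 95% interval 0.06 to 1.03, adjusted p of 0.202 by edgeR and 0.150 by DESeq2). Leaving out 1 library, it ran from 0.32 to 0.77. The mitochondrial share moved with these values, with 5.49, 1.31, 1.35 and 1.09% in WT and 6.12, 3.69, 2.08 and 3.63% in cKO, and its part in the result was not tested. Ptges3 lies on chromosome 10 from 128058954 to 128077272, plus strand. A processed pseudogene, Ptges3-ps, lies on chromosome 6 and has no row of its own in the table, so reads shared with it make the level of Ptges3 uncertain.

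Counted together, 2 of the 6 genes, Nr3c1 and Ptges3, had an unadjusted p under 0.05 for the genotype in edgeR, where 21.5% of all genes did. Ptges3 was not under that level without both ZT9 libraries (log2 fold change 0.47), without both ZT21 libraries (0.33) or without a term for time (0.36), whereas Fkbp5 was under it without both ZT9 libraries (-0.39). DESeq2 called 1 of the 6, Nr3c1, against 2.97% of all genes. For the common wave 2 of the 6, Fkbp5 and Ptges3, had an unadjusted p under 0.05, against 17.8%, and DESeq2 called 1, Ptges3, against 3.94%. For the difference in wave between the genotypes 0 of the 6 had an unadjusted p under 0.05 in edgeR, against 3.08%, and DESeq2 called 0 of the 6, against 0.729%. At an adjusted p of 0.05 edgeR called 0 of all genes tested (0%) in each of the 3 comparisons.

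Other genes of hormone supply were described from a list of 14. Of these 8 were tested, with 4 higher and 4 lower in cKO, and 0 had an unadjusted p under 0.05 in either direction, where 10.5% of all genes were higher and 11% lower at that level. Beside Hsd11b1, Srd5a1, which reduces steroids at the A ring, had 7.91 ± 0.50 CPM in WT and 9.15 ± 1.13 CPM in cKO (log2 fold change 0.21, SE 0.14). Star, which carries cholesterol into mitochondria for steroid synthesis, had 8.48 ± 3.11 and 6.77 ± 1.35 CPM (-0.29, SE 0.25). H6pd, which supplies the cofactor for the Hsd11b1 enzyme, had 14.7 ± 1.45 and 15.0 ± 1.93 CPM. Hsd11b2, the enzyme that inactivates corticosterone, was too low to test, with 9, 8, 5 and 9 counts in WT and 4, 7, 2 and 2 in cKO. The adrenal synthesis genes Cyp11b2 and Hsd3b1 were at 0 counts in all 8 libraries, Cyp21a1 had 1 count in 1 library, and Cyp11b1, which makes corticosterone in the adrenal, had 2 to 6 counts in each of the 8.

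In the steroid receptor family, 8 of 9 genes were tested, 3 higher and 5 lower in cKO, and Nr3c1 was the 1 member with an unadjusted p under 0.05 (all genes, 11% lower). Without both ZT3 libraries 2 of the 8 were lower at that level (all genes, 12.7%). Esrrb, an orphan receptor that is abundant in rods, had 281.4 ± 33.6 CPM in WT and 310.6 ± 43.6 CPM in cKO (log2 fold change 0.14, SE 0.13). Esrra, an orphan receptor of mitochondrial gene control, had 28.7 ± 2.03 and 32.0 ± 3.15 CPM (0.15, SE 0.10).

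In the chaperone cycle of the receptors, all 22 listed genes were tested, among them Fkbp4, Fkbp5 and Ptges3. In cKO 16 were higher and 6 lower, with a median log2 fold change of 0.18, against -0.03 over all genes tested. At an unadjusted p under 0.05 there were 6 higher and 0 lower (all genes, 10.5% and 11%). The list was chosen with earlier results of these data known, so its counts, here and for the wave, are a description only. Without both ZT3 libraries the counts were 6 and 0 (all genes, 12.3% and 12.7%), and without both ZT9 libraries 4 and 2 (all genes, 6.37% and 6.16%), alternatives added after the data were seen. Bag1, a nucleotide exchange factor of HSP70, had 71.2 ± 7.87 CPM in WT and 101.0 ± 11.0 CPM in cKO (log2 fold change 0.50, SE 0.12, adjusted p of 0.157 by edgeR and 0.0319 by DESeq2). Hsp90ab1, the constitutive HSP90 that holds the receptor, had 844.7 ± 104.1 and 1144 ± 156.0 CPM (0.44, SE 0.13, adjusted p of 0.163 by edgeR and 0.0557 by DESeq2). Both genes were higher at 4 of 4 times, and 30.8% of all genes tested were higher or lower at 4 of 4. Bag1 and Hsp90ab1 were named for their small p, so this agreement over times is no separate evidence. Ppid, a cyclophilin that competes with the FKBP proteins for HSP90, had 40.3 ± 3.04 and 37.1 ± 1.46 CPM (-0.11, SE 0.10). The lens, Müller glia and mitochondrial shares given above differed in the same direction as the genes that were higher in cKO, and their part was not tested.

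Over the day, 9 of these 22 chaperone genes had an unadjusted p under 0.05 for the common wave, against 17.8% of all genes. Without both ZT3 libraries 4 did, against 2.65%, and without both ZT9 libraries 13 did, against 36%. Hsp90aa1, the inducible HSP90, had a peak-to-trough fold of 2.03 with its peak at ZT18.4 (adjusted p of 0.262 by edgeR and 0.0174 by DESeq2).

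**Figure D5:**
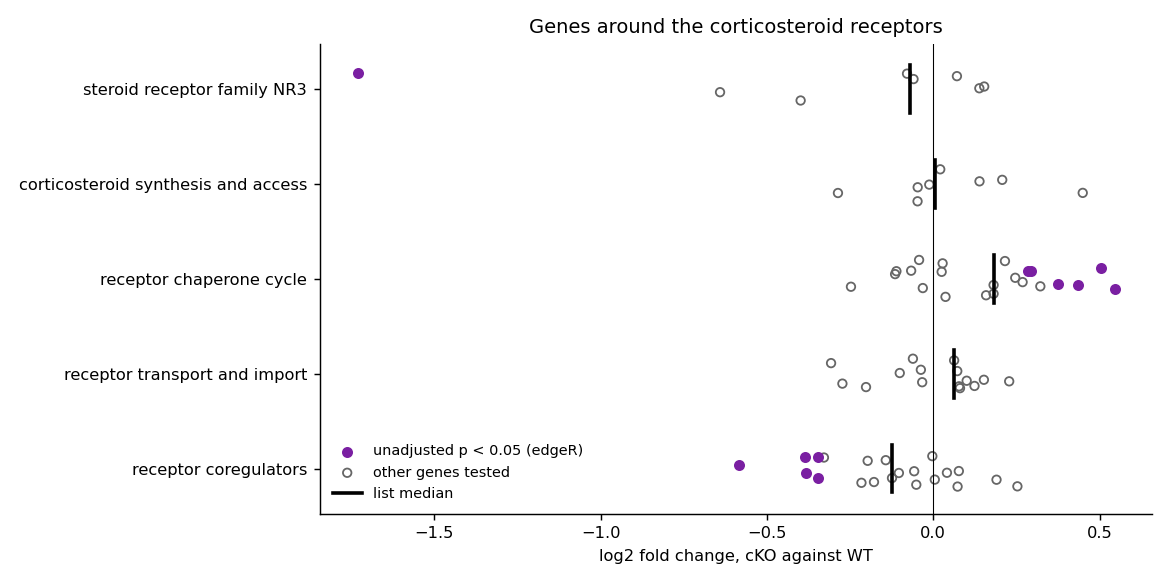
log2 fold change of cKO against WT (horizontal axis) for the tested genes of 5 lists around the receptors; filled points have an unadjusted p under 0.05 in edgeR and the black bar is the median of the list. The 6 filled points of the chaperone cycle are all above 0 and the 5 of the coregulators all below 0, and the lone filled point of the receptor family is Nr3c1 at -1.73. All 5 lists were chosen with earlier results of these data known.

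Of 15 genes of dynein transport and nuclear import, 8 were higher and 7 lower, with a median of 0.06, and 0 had an unadjusted p under 0.05 (all genes, 10.5% higher and 11% lower). Without both ZT3 libraries 1 did, the dynein intermediate chain gene Dync1i2, lower in cKO (all genes, 12.7%) and named after its value was seen. Calr, a calcium-binding protein with a role in receptor export, had 395.3 ± 63.5 CPM in WT and 460.2 ± 35.8 CPM in cKO (log2 fold change 0.23, SE 0.12). Kpnb1, importin beta, had 98.0 ± 21.6 and 79.8 ± 1.18 CPM (-0.27, SE 0.13). Its WT mean was raised by ZT3, with 130.3 CPM there and 85.4 to 89.4 CPM at the other WT times, against 78.6 to 81.4 CPM in cKO. For the common wave 4 of the 15 had an unadjusted p under 0.05, against 17.8% of all genes; it was 0 of the 15 without both ZT3 libraries (2.65%) and 7 without both ZT9 libraries (36%). The import receptor gene Ipo8 had a fold of 2.15 with its peak at ZT3.83 (adjusted p of 0.262 by edgeR and 0.0267 by DESeq2).

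Of 21 coregulators 6 were higher and 15 lower, with a median of -0.12. At an unadjusted p under 0.05 there were 0 higher and 5 lower (all genes, 10.5% and 11%). This list too was chosen with earlier results of these data known, so its counts are a description only. Without both ZT3 libraries these counts were 2 and 3 (all genes, 12.3% and 12.7%), and without both ZT9 libraries 0 and 2 (all genes, 6.37% and 6.16%). Ncor1, a corepressor of nuclear receptors, had 369.5 ± 128.8 CPM in WT and 235.8 ± 50.2 CPM in cKO (log2 fold change -0.59, SE 0.18, adjusted p of 0.163 by edgeR and 0.0689 by DESeq2). Ehmt1, a histone methyltransferase, had 40.1 ± 4.53 and 30.8 ± 4.12 CPM (-0.38, SE 0.10, adjusted p = 0.157 in edgeR). Ncor1 and Ehmt1 were lower at 4 of 4 times, and 30.8% of all genes tested were higher or lower at 4 of 4. At ZT3 the Ncor1 levels were nearly equal, at 182.7 CPM (WT) and 176.8 CPM (cKO). Both genes were named for their small p, so their shared direction over times is no separate evidence. For the wave 5 of the 21 had an unadjusted p under 0.05, against 17.8% of all genes; it was 0 of the 21 without both ZT3 libraries (all genes, 2.65%) and 12 without both ZT9 libraries (36%). Med1, a Mediator subunit that binds nuclear receptors, had a fold of 2.57 with its peak at ZT4.15 (adjusted p of 0.262 by edgeR and 0.0382 by DESeq2).

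The genes most like each member were taken by Pearson's r of the log2 level over the 8 libraries, among 12148 genes, or 12149 for Hsd11b1, with a mean of at least 5 CPM. The libraries differed in depth and in the shares of tissue markers, and all genes were measured in the same 8, so r is a description only. For Nr3c1 they were Abcc10 (r = 0.993), Top2a (0.988) and Cep57 (0.978), and 108 genes had an r above 0.9. Abcc10, an efflux transporter, had 13.9 to 18.2 CPM in WT and 10.2 to 11.2 CPM in cKO. For Fkbp5 they were Foxq1 (0.968), Ip6k3 (0.949) and Sesn2 (0.948), and 10 genes exceeded 0.9. Foxq1, a forkhead transcription factor, was likewise highest at ZT15, at 8.81 CPM (WT) and 7.52 CPM (cKO). For Ptges3, Cbx3 (0.999), Sdc4 (0.999) and Sod2 (0.998) came first among 1080 genes above 0.9. Sdc4, a cell-surface proteoglycan, had 121.0 and 113.3 CPM at ZT3 and 17.0 to 49.3 CPM at the other times. For Fkbp4, 615 genes exceeded 0.9, led by Rtn2, Gabarap and Use1. For Hsd11b1 there were 191, led by Uqcr11, Hdhd2 and Tubg2, and for Nr3c2 there were 9, led by Usb1, Tefm and Zbtb24. Hsd11b1 had only 16 to 44 counts per library and Nr3c2 varied only 1.21-fold, so counting error weighs on the matches of both.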

How the data were processed

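The authors deposited raw counts per gene symbol, without normalization, for 8 pooled whole-eye libraries. Per the labels' protocols, equal amounts of RNA from 3 mice were pooled before each library. Aligner, counter, genome build and strand: not given in the sources used here. Of 32544 rows, 27 with a date in place of the symbol were left out (0.123 to 0.145% of a library). Genes were filtered with filterByExpr by genotype (15373 kept) and tested in R 4.3.3 with edgeR 4.0.16 (TMM, quasi-likelihood F test, Benjamini-Hochberg over all genes, threshold 0.05).

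The genotype fit had time as a factor, the common wave a 24 h cosine beside genotype, and the third fit a wave per genotype. With 4 times a wave is only a contrast of time points. Without repeat libraries, p-values measure the spread between pools around the model. DESeq2 1.42.0 and limma 3.58.1 (voom) were alternatives. Lengths and positions come from GENCODE M21 (GRCm38), promoters from RefSeq GRCm38.p6. Intervals on single counts and ratios (exact Poisson and Clopper-Pearson, 95%) cover counting error only. Named genes are the 6 members, from each list the 2 smallest p in each direction and for the wave (of these, those described are a selection), and the 3 nearest patterns. The members and lists were chosen with earlier results of these data known.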

Additional observations from a re-analysis of the deposited data

Results flagged for a closer look

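In 12 groups of 4 libraries, 6 genes in 2 genotypes, 2 libraries lay far from the other 3 of their group by Dixon's criterion. Its nominal rate of about 1 group in 20 is for repeats of the same condition, whereas each group here holds 4 times of day. The share of all genes flagged in this way was not computed, so the 2 flags are a description only. Ptges3 in WT at ZT3, with 88.0 CPM, lay above the other WT times, and its gap to the nearest was 0.911 of the range of the group. Fkbp4 in cKO at ZT3, with 205.9 CPM, lay below the other cKO times, which were within 267.6 and 269.2 CPM, and its gap was 0.976 of the range. Both are libraries of ZT3, the time at which the mitochondrial share was highest, and the part of that share in these values was not tested. Of all genes tested, 24.8% were highest and 26.9% lowest at ZT3 in both genotypes.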

How the results depend on the processing

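The log2 fold change of Nr3c1 kept its sign in all 20 alternatives. It was past the threshold in DESeq2 (-1.72, adjusted p = 7.39e-13) and in edgeR without a filter on low counts (-1.71, adjusted p = 0.00612), and ran from -1.96 to -1.61 (adjusted p 0.0521 to 0.371) on leaving out 1 library. The other 5 genes kept their genotype sign and had an adjusted p above 0.05 in every alternative run. For the genotype, 0 genes were called in edgeR, 7 without the filter and 457 in DESeq2, and 0 in each fit without 1 library. Without a term for time (no replicate block) 0 were called, and Nr3c1 had -1.76 (adjusted p = 0.0845). For the wave, 0 genes were called in edgeR, 3 without the filter, 606 in DESeq2, 1543 without both ZT9 and 325 without both ZT21 libraries, and 0 to 1 without 1 library. Without both ZT9 libraries Fkbp5 (fold 2.01, adjusted p = 0.0431) and Ptges3 (4.55, adjusted p = 0.0411) passed, and without both ZT21 libraries Ptges3 did (4.40, adjusted p = 0.0428). The direction of the wave turned for Nr3c1 (fold 1.11) and Nr3c2 (1.05) without WT ZT3, and for Nr3c2 (1.07) without both ZT3 libraries; leaving out 1 library each, the folds were 1.11 to 1.48 and 1.05 to 1.13. For the difference in wave, 0 were called in edgeR, 112 in DESeq2 and 0 to 1442 without 1 library, where 1 residual degree of freedom remains. That difference, as a fold of 1.12 to 3.27 for Nr3c1, 1.37 to 3.07 for Fkbp5 and 1.26 to 6.99 for Ptges3, then turned for Nr3c1 (1.12) and Ptges3 (4.26) without WT ZT3, Fkbp5 (1.49) without WT ZT9 and Ptges3 (3.69) without WT ZT21. Ptges3 passed without WT ZT3 (adjusted p = 0.0349), WT ZT9 (6.99, adjusted p = 0.0139) and WT ZT15 (6.30, adjusted p = 0.00448). The cause of these shifts was not tested. Depth limits Hsd11b1, with 16 to 44 counts per library.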
